A study of Mus musculus with 16 samples.

Results

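The comparison described here rests on 8 of the 16 libraries of an RNA sequencing series, 4 from mouse CD4+ T cells given a mimic of the microRNA miR-23a and 4 from the same kind of cells given a mimic of miR-24. The members were chosen by their titles alone, and no library of the control mimic or of the miR-27a mimic entered the fit. A mimic is a synthetic short double-stranded RNA that is loaded into the cell's silencing machinery in place of the natural microRNA. The study set the mimics of the miR-232724 clusters against a control mimic in T cells cultured towards the T helper 2 (Th2) type, the cells that make the cytokines of allergic inflammation. Setting 2 active mimics directly against each other asks in which transcripts their effects differ.

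All groups shared strain C57BL/6 and genotype Dgcr8f/f Tbet-/- CD4-cre. Dgcr8, a subunit of the nuclear complex that cuts microRNA precursors, is deleted by a Cre recombinase whose expression in T cells follows the Cd4 promoter, so the cells lack most microRNAs of their own. Tbet, the product of Tbx21, is the transcription factor of the T helper 1 (Th1) type and was absent by germline genotype in the controls as well. CD4+ cells of spleen and lymph nodes were stimulated through CD3 and CD28 for 3 days with 10 U/ml IL-4 and then kept for 2 days with 20 U/ml IL-2. Mimic was delivered by electroporation at 500 nM on day 1 and again on day 4. Live CD4+ cells positive for RosaYFP, a fluorescent reporter, were sorted, between 150000 and 800000 per sample, and 1 ng of their RNA was amplified into libraries. The animals' age and sex are not given in the sources used here, and the design text calls the replicates biological without saying which animals gave which library.

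MicroRNAs guide Argonaute proteins to messenger RNAs that pair with the seed, bases 2 to 8 of the mature strand, and the paired messages are destabilised or translated less. The strongest sites pair with the whole seed and carry an A opposite the first base, which makes an 8mer. miR-23, miR-27 and miR-24 are made from shared precursor transcripts but have different seeds, and in T cells they are known to limit cytokine production and T helper differentiation. The mature strands are shown with the seed in capitals, because the seed decides which transcripts a mimic can pair with; they are the RefSeq entries on GRCm38.p6, written 5′ to 3′, and the miR-27a strand, whose mimic is in neither group, is there for comparison. The labels name no arm, and the 3p strand, the one usually meant by these names, was assumed.
miR-23a-3p (chr8:84208563-84208583, plus strand): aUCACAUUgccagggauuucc
miR-24-3p (chr8:84208875-84208896 and chr13:63301251-63301272, both plus strand): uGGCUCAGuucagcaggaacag
miR-27a-3p (chr8:84208727-84208747, plus strand): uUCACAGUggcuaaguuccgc

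The 8mer searched for in messenger RNA was AATGTGAA for miR-23a-3p and CTGAGCCA for miR-24-3p, on the transcribed strand only. The miR-27a-3p 8mer is ACTGTGAA, which shares its last letters TGTGAA with that of miR-23a-3p, while the miR-24-3p 8mer shares no such run with either. The longest annotated 3′ UTR (GENCODE M21, GRCm38) of 11635 of the 12510 genes tested was searched. An AATGTGAA was found in 842 of them (7.24%), a CTGAGCCA in 1039 (8.93%), and both in 114 (0.98%). The sites below belong to leading genes that were lower with the matching mimic, with the miR-24-3p site of Gcnt4, a gene lower with miR-23a, added because it holds both, with the 8mer in capitals, and their positions are those of the 8mer on GRCm38. All lie in 3′ UTR exons, and they are named again beside the values of their genes.
Nup210, miR-24-3p 8mer (chr6:91013445-91013452, minus strand): cctcagtggatCTGAGCCAccctattggcc
Nup210, miR-24-3p 8mer (chr6:91013192-91013199, minus strand): atcctttgaggCTGAGCCAtaggatggact
Tada2b, miR-24-3p 8mer (chr5:36475421-36475428, minus strand): cccgctccccaCTGAGCCActtaagatgag
P2rx7, miR-24-3p 8mer (chr5:122682692-122682699, plus strand): gctcttaactaCTGAGCCAtctctccacct
Tanc2, miR-24-3p 8mer (chr11:105928082-105928089, plus strand): cctcacagcagCTGAGCCAccctgagatgc
Coq5, miR-24-3p 8mer (chr5:115296712-115296719, plus strand): cactgccactgCTGAGCCAagcccgcagag
Rps29, miR-23a-3p 8mer (chr12:69157731-69157738, minus strand): caaagaataaaAATGTGAAgaactttaa
Eomes, miR-23a-3p 8mer (chr9:118485995-118486002, plus strand): ccccttcagtaAATGTGAAaaaaaaaattg
Timm8b, miR-23a-3p 8mer (chr9:50605305-50605312, plus strand): accagttaataAATGTGAAgtctccaa
Ndufa3, miR-23a-3p 8mer (chr7:3620141-3620148, plus strand): tctccaataaaAATGTGAAaactaataacc
Sft2d1, miR-23a-3p 8mer (chr17:8327233-8327240, plus strand): acagcttttgaAATGTGAAtatttaaggta
Sft2d1, miR-23a-3p 8mer (chr17:8327336-8327343, plus strand): ttaactttaaaAATGTGAAactttatatac
Gcnt4, miR-23a-3p 8mer (chr13:96950667-96950674, plus strand): ttggcttccagAATGTGAAtatatacaggc
Gcnt4, miR-24-3p 8mer (chr13:96948850-96948857, plus strand): gtattgtgctgCTGAGCCAcaaccctgaga

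The deposited values are read counts per gene, and each was expressed here as CPM, the count relative to a library size scaled by edgeR's trimmed mean of M values. Reads assigned to genes numbered 11995286, 4086654, 11370150 and 12582408 in miR-23a replicates 1 to 4 and 5863004, 11427485, 13220646 and 10216730 in miR-24 replicates 1 to 4. T cell transcripts were present in all 8 libraries, with Cd3e, a chain of the T cell receptor complex, at 534 to 1047 CPM and Cd4 at 300.1 to 944 CPM. The NK cell genes Ncr1 and Klra8 were at 0 reads in all 8. Over the miR-23a and the miR-24 libraries, Klrb1c had 1 and 0 reads, Klre1 1 and 2, Tyrobp 5 and 6, and Xcl1 0 and 18. Cd8a had 86 and 132, and Cd8b1 376 and 760. Of 9 measured granulocyte and mast cell markers none passed the filter on low counts. Markers of other lists reached 14.8 CPM for Cd22 (B cells), 17.6 CPM for Itgam (myeloid), 34.2 CPM for Epcam (stromal list) and 128 CPM for H2-DMa (class II antigen presentation). The summed level of 8 NK and CD8 T cell markers was 9.20 to 12.9 CPM with miR-23a and 18.8 to 30.1 CPM with miR-24, and that of 10 dendritic cell markers was 45.0 to 61.8 and 64.2 to 111 CPM. Each of these differences had a two-sided exact permutation p = 0.0286, the smallest that 4 against 4 libraries allows, and 0.271 after adjustment over 19 library measures. Summed T cell markers were at 4135 to 4811 CPM with miR-23a and 3151 to 4141 CPM with miR-24 (exact permutation p = 0.0571, adjusted 0.362). Of the dendritic cell sum Batf3, which activated T cells also express, gave a mean of 22.9 of 50.7 CPM with miR-23a and 51.3 of 84.7 CPM with miR-24. Reads over the miR-23a and the miR-24 libraries were 380 and 386 for Xcr1, 355 and 520 for Bst2, and 182 and 220 for Ccl22. They were 79 and 70 for Itgax, 49 and 46 for Zbtb46, and 38 and 42 for Siglech. Flt3 had 1 and 7 reads, Clec9a 1 and 3, and Cd209a none. The part of these cells in the results below was not tested. Dgcr8 was at 57, 54.2, 46.9 and 51.2 CPM with miR-23a and 41.8, 50.3, 50.9 and 52.2 CPM with miR-24, a count over the whole gene that does not resolve the deleted exons. Tbx21 was at 0.766 to 5.18 CPM over the 8 libraries.

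Libraries with the same number deviated together from their group means (r = 0.348, 0.438, 0.654 and 0.665 for numbers 1 to 4, over 4899 genes), and the replicate number was therefore a term of the fit. In replicate 4 of both mimics Xist, the transcript of the inactive X chromosome, was at 4946 and 7870 CPM, against 9.83 to 53.3 CPM in the other libraries, and the summed Y-linked transcripts were at 1.23 and 1.20 CPM, against 228 to 439 CPM. The pair numbered 1 stood apart from the others. Its log2 differences between the mimics had a standard deviation of 1.04 over genes, against 0.621 to 0.752 in the other pairs, and they correlated with those of the other pairs at r = 0.167 to 0.308. Counts that lead a paragraph below are therefore also given without replicate 1, where 8.69% of all genes were called higher with miR-23a and 9.91% higher with miR-24. Of the fits that leave out a pair, this one called the most genes. Its counts come from the same data and are not separate support for those of all 4 pairs. Leaving out any other pair lowered the number of calls. Replicates are listed in the order 1 to 4 throughout, and the log2 fold change (log2FC, ± its standard error) is miR-23a minus miR-24. A positive value thus means higher with miR-23a.

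With the replicate number in the model, 530 of 12510 genes (4.24%) differed between the mimics at an adjusted p under 0.05 (edgeR quasi-likelihood test, Benjamini-Hochberg over all genes tested) and are referred to as called. Of these, 248 (1.98%) were higher with miR-23a and 282 (2.25%) were higher with miR-24. The median fold change of called genes was 1.22 in size on the log2 scale, and 378 of the 530 differed by more than 1. A same direction in all 4 numbered pairs was found in 527 of the 530, against 3671 of all genes (29.3%), and the 4 libraries of one mimic lay wholly above the 4 of the other in 329 of the 530, against 1097 of all genes (8.77%). The calls were made on these same 4 pairs, so both counts follow in large part from the calls and are not separate support for them. Every gene given below as called was higher with the same mimic in all 4 pairs.

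The count depended on which pair was left out. Without replicate 1, 2333 of 12548 genes (18.6%) were called, and 527 of the 530 were among them in the same direction. Without replicate 2, 45 were called (0.358%), and without replicate 4, 98 (0.781%). Without replicate 3, edgeR called 0 genes (0%), with 1504 at an unadjusted p under 0.05; on the same 3 pairs DESeq2 called 142 genes higher with miR-23a and 161 higher with miR-24, and limma-voom called 0 and 2. All calls named below are therefore lost when the pair numbered 3 is left out, and for the leading genes the number of the 4 leave-one-pair-out fits that kept the call is given. Most called genes given without that number, such as Rora, Cd4, Rpl24 and Hmgn2, kept the call in only 1 of the 4 fits. That fit was usually the one without replicate 1. The bulk counts do not separate fewer cells of a type from less RNA per cell, which cannot be told apart in any of the values that follow.

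**Figure D1:**
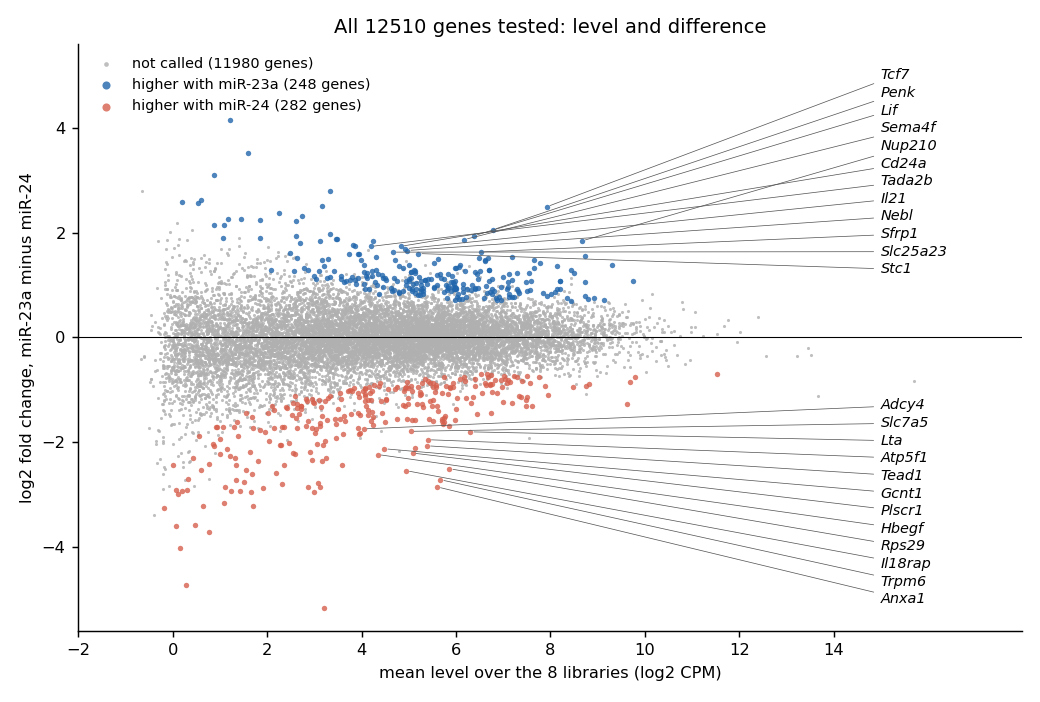
Log2 fold change (miR-23a minus miR-24, vertical axis) against the mean level over the 8 libraries (log2 CPM, horizontal axis) for the 12510 genes tested. Blue points are the 248 genes called higher with miR-23a, red points the 282 called higher with miR-24, and the named genes are those with the most extreme fold changes at a mean of at least 4 on the log2 CPM scale.

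Genes that hold a target site of one mimic had, as groups, lower levels with that mimic. The 842 genes with a miR-23a-3p 8mer had a median log2 fold change of -0.18, and 66.4% of them had a negative value. Those with a miR-24-3p 8mer, 1039 genes, had a median of 0.12, and 38.7% were negative. Over all genes searched the median was -0.01, and the 774 genes with a miR-27a-3p 8mer, whose mimic was in neither group, had a median of 0.01. The medians kept their sign within every numbered pair, at -0.38, -0.11, -0.13 and -0.14 for the miR-23a-3p 8mer and 0.18, 0.13, 0.16 and 0.08 for the miR-24-3p 8mer. These are descriptions over genes, which are not replicates, and no test was made of the lists.

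More sites went with larger medians for miR-23a. A set of 70 genes with at least 2 miR-23a-3p 8mers had a median of -0.35, and 117 with at least 2 miR-24-3p 8mers had a median of 0.15. The 7mer that pairs with the full seed but lacks the A was searched among genes without the 8mer. For miR-24-3p it gave a median of 0.14 over 1238 genes, close in the fit to the median of the 8mer genes. Within pairs 1 to 4 the 7mer medians were 0.34, 0.03, 0.13 and 0.05, below those of the 8mer in all pairs but the first. For miR-23a-3p the 7mer gave -0.04 over 1141 genes. Its median was -0.18 in the pair numbered 1 and 0.03, 0.01 and 0.03 in pairs 2 to 4, so its sign was not kept. Genes with 8mers of both had a median of -0.13 over 114 genes. Neither 8mer was present in 9868 genes, with a median of -0.01.

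Among called genes the sites were unevenly distributed. Of the 276 searched genes called higher with miR-24, 50 (18.1%) hold a miR-23a-3p 8mer and 12 (4.35%) a miR-24-3p 8mer. Of the 244 called higher with miR-23a, 13 (5.33%) hold a miR-23a-3p 8mer and 44 (18%) a miR-24-3p 8mer. Among the 11115 genes not called these shares were 7.01% and 8.84%. Read the other way, 5.94% of the genes with a miR-23a-3p 8mer were called higher with miR-24, against 2.37% of all genes searched, and 4.23% of those with a miR-24-3p 8mer were called higher with miR-23a, against 2.1%. Without replicate 1 these 50 and 44 genes became 155 and 164, of 839 and 1038 genes with a site, while calls over all genes rose to 9.91% higher with miR-24 and 8.69% higher with miR-23a. Neither 8mer was present in 190 of the 244 and 218 of the 276 called genes, and a site that is absent from the longest annotated 3′ UTR says nothing about coding sequence or other isoforms.

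**Figure D2:**
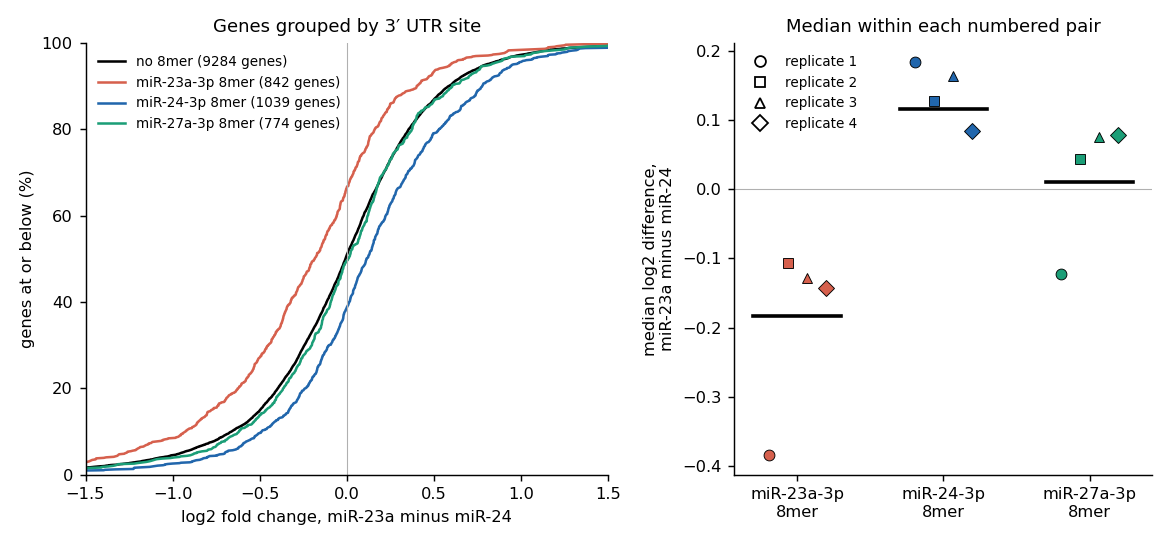
Left, cumulative share of genes (vertical axis, percent) at or below each log2 fold change (miR-23a minus miR-24, horizontal axis) for genes with an 8mer of each microRNA and for genes with none of the 3. Right, the median log2 difference of the same groups within each numbered pair (symbols) and in the fit over all pairs (line): the miR-23a-3p group lies below 0 in all 4 pairs, at -0.38 to -0.11, the miR-24-3p group above it, at 0.08 to 0.18, and the miR-27a-3p group on both sides.

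The 6 genes with a miR-24-3p 8mer and the smallest adjusted p led those that were lower with miR-24. Nup210, a glycoprotein of the nuclear pore with a pair of CTGAGCCA sites, was at 720.0, 768, 868 and 729.5 CPM with miR-23a and 149, 327, 192 and 227 CPM with miR-24. The groups were well apart, and the gene was 3.58-fold lower with miR-24 (log2FC 1.84 ± 0.21, edgeR adjusted p = 0.00695), a call kept in 3 of 4 leave-one-pair-out fits. Tada2b, an adaptor of the SAGA histone acetyltransferase complex, was at 33.9, 27.8, 34.9 and 35.8 CPM with miR-23a and 7.69, 9.01, 11.6 and 11.6 CPM with miR-24. Again no library of one group reached the other (log2FC 1.73 ± 0.21, edgeR adjusted p = 0.00695; 3 of 4). Tada2b overlaps Grpel1 on the opposite strand, and since the strand setting of the counting is not given in the sources used here, reads of such pairs cannot be told apart.

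P2rx7, a cation channel opened by extracellular ATP, was at 27.1, 11.6, 25.2 and 8.12 CPM with miR-23a and 5.35, 5.73, 6.24 and 2.11 CPM with miR-24. Its lowest miR-23a library lay above its highest miR-24 library (log2FC 1.83 ± 0.28, edgeR adjusted p = 0.0127; 2 of 4). Coq5, a methyltransferase of ubiquinone synthesis, was at 33, 43.2, 19.3 and 17.2 and 9.36, 11.1, 6.07 and 8.94 CPM. It did not overlap between the mimics either (log2FC 1.60 ± 0.24, edgeR adjusted p = 0.0119; 2 of 4). Tanc2, a scaffold protein known from synapses, was at 117, 207, 793 and 548 CPM with miR-23a and 40.8, 85.2, 239 and 315 CPM with miR-24. Its groups overlapped because both mimics had their low libraries in replicates 1 and 2, while each pair differed the same way (log2FC 1.33 ± 0.19, edgeR adjusted p = 0.0112; 2 of 4). The clone gene 9030617O03Rik, whose counts may hold reads of the other strand, was at 88.9, 75.3, 111 and 143 and 28.1, 37.9, 47 and 53 CPM. Its groups were apart (log2FC 1.33 ± 0.19, edgeR adjusted p = 0.00893; 2 of 4).

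Among genes with a miR-23a-3p 8mer, Rps29, which encodes a protein of the small ribosomal subunit, was at 36.3, 32.5, 20.1 and 14.6 CPM with miR-23a and 158, 147, 158 and 98.1 CPM with miR-24. Every miR-24 library was above every miR-23a library, and the gene was 5.68-fold lower with miR-23a (log2FC -2.51 ± 0.21, edgeR adjusted p = 0.00337; 3 of 4). Its AATGTGAA directly follows the letters aataaa in a 3′ UTR of 91 bases. Eomes, a T-box transcription factor of cytotoxic and memory T cells, was at 9.73, 16.8, 2.65 and 0.613 CPM with miR-23a and 62.7, 78.9, 9.49 and 3.31 CPM with miR-24. Levels in replicates 1 and 2 were far above those in 3 and 4 under both mimics, so the groups overlapped, but each pair was lower with miR-23a (log2FC -2.30 ± 0.24, edgeR adjusted p = 0.00679; 3 of 4). Without the replicate term the adjusted p of Eomes was 0.368.

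Ndufa3, a subunit of respiratory complex I, was at 3.93, 4.48, 3.36 and 3.75 CPM with miR-23a and 12.5, 18.7, 22.4 and 28.1 CPM with miR-24. Timm8b, a chaperone of mitochondrial protein import, was at 2.23, 3.36, 3.71 and 4.67 and 9.03, 15.1, 21.3 and 19.5 CPM. Neither gene's groups overlapped (Ndufa3, log2FC -2.36 ± 0.29, edgeR adjusted p = 0.00695; Timm8b, log2FC -2.19 ± 0.25, edgeR adjusted p = 0.00695), and both calls were kept in 3 of 4 fits. Ndufa3 overlaps Tfpt, and Timm8b overlaps AU019823, on the opposite strand. Sft2d1, a vesicle transport protein with a pair of AATGTGAA sites in 448 bases of 3′ UTR, was at 4.29, 5.15, 8.49 and 8.35 and 15, 24.6, 26.9 and 27.1 CPM. Every miR-24 library was above every miR-23a library (log2FC -1.84 ± 0.23, edgeR adjusted p = 0.00695; 2 of 4). Gcnt4, a glycosyltransferase that branches O-glycans, holds 8mers of both microRNAs. It was at 0.357, 4.48, 3.45 and 6.74 CPM with miR-23a and 8.69, 21.5, 35.7 and 34.5 CPM with miR-24. It was lower with miR-23a in every pair and the groups did not overlap (log2FC -2.95 ± 0.36, edgeR adjusted p = 0.00695; 3 of 4).

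The miR-27a and control libraries, which entered no test, give these genes a position. Control values are from replicates 2 to 4, since the control library numbered 1 had 51474 reads on genes. Tada2b was at 39, 30.7 and 24.3 CPM in the control libraries, near its miR-23a range, while Nup210, at 876, 512 and 278 CPM, ran from above its miR-23a range to within its miR-24 range. The control of 9030617O03Rik, at 48.9, 67 and 60.8 CPM, lay below all its miR-23a libraries, and its mean was nearer to miR-24. On a log2 scale the control mean was nearer to miR-23a in Nup210, Tada2b and Coq5, and above both mimics in P2rx7 and Tanc2. Rps29 was at 79, 125 and 107 CPM and Ndufa3 at 17.4, 20.7 and 14.7 CPM in the controls, near their miR-24 range. In 3 of the 6 genes with a miR-24-3p 8mer, P2rx7, Coq5 and 9030617O03Rik, the miR-27a mean in CPM lay nearer to the miR-24 mean than to the miR-23a mean. In Coq5 it was 18.2 CPM, against 8.88 CPM with miR-24 and 28.2 CPM with miR-23a, and on a log2 scale it was nearer to miR-23a. In P2rx7 it was 8.19 CPM, against 4.86 CPM with miR-24 and 18 CPM with miR-23a.

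**Figure D3:**
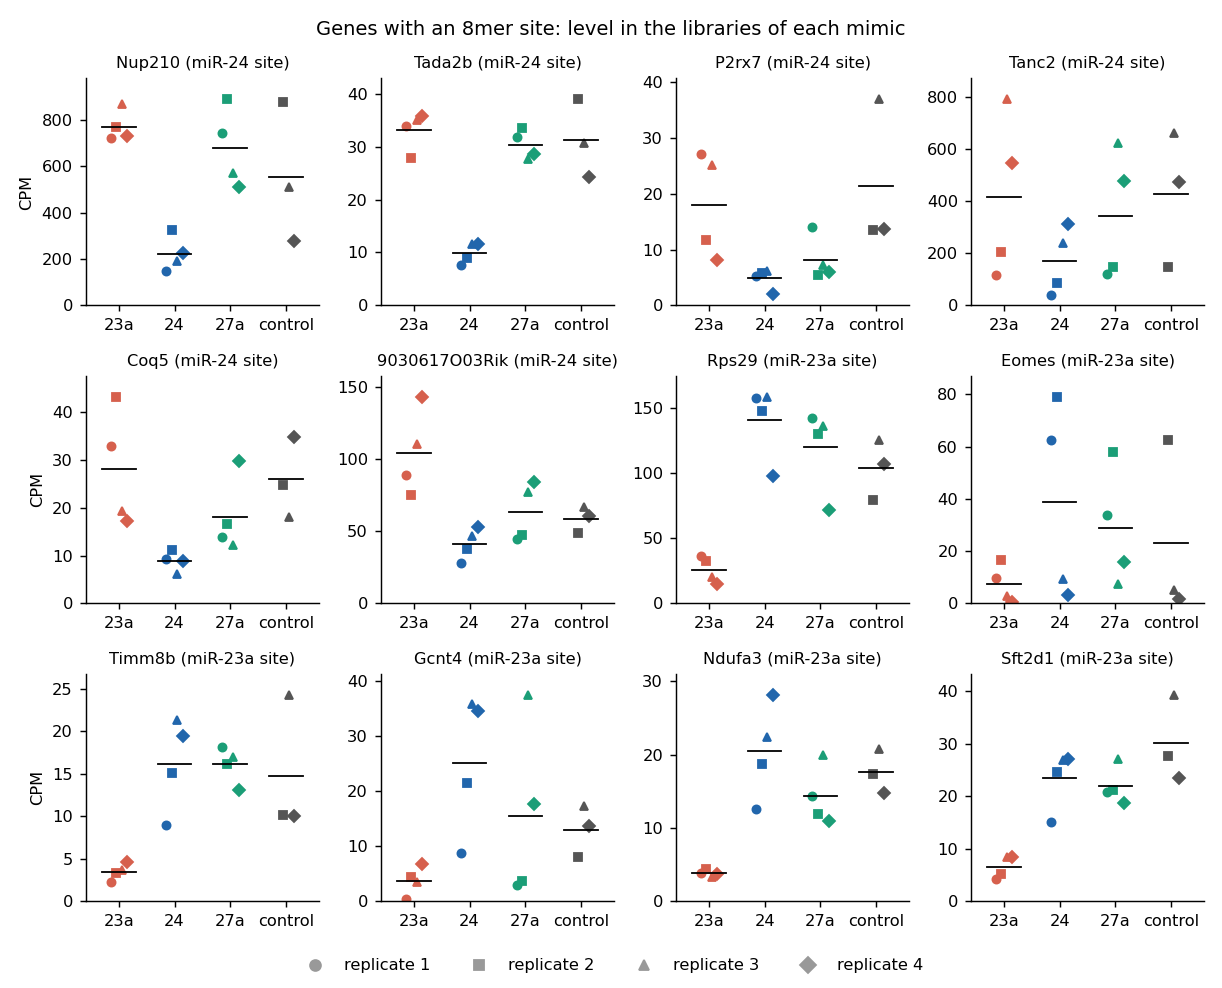
Level (CPM, vertical axis, from 0) of the 6 leading genes with a miR-24-3p 8mer and the 6 with a miR-23a-3p 8mer in the libraries of each mimic and of the control mimic; symbols are replicates, the line is the mean, and the control library with 51474 reads is left out. These genes were chosen as called lower with the matching mimic, so their order between miR-23a and miR-24 follows from the choice. Examples are Tada2b (mean 9.99 CPM with miR-24 and 33.1 CPM with miR-23a) and Ndufa3 (mean 3.88 CPM with miR-23a and 20.4 CPM with miR-24). Gcnt4, which holds both sites, is shown among the genes with a miR-23a-3p 8mer.

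Over all called genes, the control mean took every position. For the 248 genes higher with miR-23a, it was nearer to miR-23a in 130, nearer to miR-24 in 45, above both in 70 and below both in 3. For the 282 genes higher with miR-24, it was nearer to miR-23a in 116, nearer to miR-24 in 71, below both in 68 and above both in 27. These positions describe the means on a log2 scale and rest on 3 control libraries.

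Beyond the sites, the genes with the most extreme fold changes included several regulators of T cell fate and secreted factors. Tcf7 encodes TCF-1, which maintains naive and memory lymphocytes and also acts early in Th2 differentiation. It was at 1108, 533, 679 and 270.3 CPM with miR-23a and 116, 159.6, 99.1 and 59 CPM with miR-24. The miR-24 libraries were all below the lowest miR-23a library, the gene was 5.62-fold lower with miR-24 (log2FC 2.49 ± 0.26, edgeR adjusted p = 0.00679), and the call was kept in 3 of 4 fits. The control libraries, at 947, 608 and 328 CPM, lay in the miR-23a range. Tcf7 holds no miR-24-3p 8mer but 1 of the 7mers without the A.

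Lif, leukaemia inhibitory factor, a cytokine of the interleukin 6 family, was at 192, 104, 214 and 163 CPM with miR-23a and 36.1, 48.5, 43.9 and 42.2 CPM with miR-24. The groups were apart (log2FC 1.94 ± 0.24, edgeR adjusted p = 0.00695; 3 of 4), and the control libraries, at 109, 86.5 and 97.4 CPM, lay between them or at the low end of miR-23a. Sema4f, a membrane semaphorin, was at 151, 73, 257 and 124 CPM with miR-23a and 36.6, 34.4, 48.3 and 33.1 CPM with miR-24. All 4 miR-24 values were close together and below the rest (log2FC 1.87 ± 0.23, edgeR adjusted p = 0.00695; 3 of 4). Il21, the cytokine of follicular helper and Th17 cells, was at 28.5, 16.6, 139 and 161 CPM with miR-23a and 2.34, 6.3, 50.4 and 82.4 CPM with miR-24. Replicates 3 and 4 were high under both mimics, so the groups overlapped (log2FC 1.69 ± 0.35, edgeR adjusted p = 0.0338; 1 of 4). Without the replicate term its adjusted p was 0.656 (edgeR).

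Penk, the precursor of enkephalin peptides, followed the same replicate pattern, at 82.8, 35.8, 923 and 999 CPM with miR-23a and 5.01, 11.2, 164 and 779 CPM with miR-24. Its call (log2FC 2.05 ± 0.48, edgeR adjusted p = 0.0468) rested on replicate 1: without that pair the fold change was 1.49 with an adjusted p of 0.275. Cd24a, a glycosylphosphatidylinositol-anchored surface protein, was at 20.3, 23.1, 90.4 and 161 and 11.9, 6.39, 15.4 and 49.6 CPM. Its groups overlapped, with replicates 3 and 4 high under miR-23a (log2FC 1.74 ± 0.28, edgeR adjusted p = 0.014; 1 of 4). Sfrp1, a secreted inhibitor of Wnt ligands, was at 55.4, 144, 348 and 249 CPM with miR-23a and 11.4, 65.8, 92.7 and 102 CPM with miR-24, each below the same-numbered control library of replicates 2 to 4 (controls at 192, 734 and 526 CPM). Its groups overlapped through replicates 1 and 2 (log2FC 1.63 ± 0.22, edgeR adjusted p = 0.00884; 3 of 4). Nebl, an actin-binding protein (log2FC 1.66 ± 0.28, edgeR adjusted p = 0.0165), Slc25a23, a mitochondrial carrier of adenine nucleotides (log2FC 1.63 ± 0.20, edgeR adjusted p = 0.00695), and Stc1, a secreted glycoprotein (log2FC 1.60 ± 0.25, edgeR adjusted p = 0.0129), completed the 12 genes. The call of Slc25a23 was kept in 2 of 4 fits, and those of Penk, Nebl and Stc1 in 1 of 4.

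On the other side, Anxa1, a phospholipid-binding protein with anti-inflammatory actions, was at 4.2, 13.2, 49.3 and 33.1 CPM with miR-23a and 92.3, 132, 179.7 and 143 CPM with miR-24. It was 7.22-fold higher with miR-24 and the groups did not overlap (log2FC -2.85 ± 0.40, edgeR adjusted p = 0.00911; 2 of 4). Its control levels of 14, 54.5 and 35.8 CPM lay in or just above the miR-23a range. Trpm6, a magnesium channel fused to a kinase, was at 11.9, 18.4, 21.9 and 31.6 CPM with miR-23a and 89.8, 113, 205 and 136 CPM with miR-24. The lowest miR-24 library was above all miR-23a libraries (log2FC -2.72 ± 0.23, edgeR adjusted p = 0.00337; 3 of 4). Il18rap, the accessory chain of the interleukin 18 receptor, was at 12.9, 20.4, 6.37 and 14.7 CPM with miR-23a and 67.2, 80.3, 80.3 and 68.7 CPM with miR-24. All 4 miR-24 libraries were close together and far above the rest (log2FC -2.54 ± 0.29, edgeR adjusted p = 0.00695; 3 of 4), controls included at 27, 19.4 and 21 CPM.

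Hbegf, a membrane-anchored ligand of the EGF receptor, was at 9.2, 4.93, 12.9 and 11.9 CPM with miR-23a, 22.9, 40.9, 77 and 51.2 CPM with miR-24 and 6.54, 8.48 and 4.76 CPM in the controls. It was higher with miR-24 without overlap (log2FC -2.24 ± 0.29, edgeR adjusted p = 0.00695; 3 of 4). Plscr1, an interferon-inducible phospholipid scramblase, was at 14.7, 17.9, 12.5 and 18 CPM with miR-23a and 95.3, 68, 77.4 and 53.7 CPM with miR-24. Its groups were apart (log2FC -2.21 ± 0.24, edgeR adjusted p = 0.00695; 3 of 4). Lta, which encodes the cytokine lymphotoxin alpha, was at 96.3, 39.4, 24.8 and 33.6 CPM with miR-23a and 286, 182, 98.2 and 92.9 CPM with miR-24. Its groups met at replicate 1 of miR-23a, though each pair was higher with miR-24 (log2FC -1.80 ± 0.19, edgeR adjusted p = 0.00695; 3 of 4). Gcnt1, the enzyme that starts core 2 O-glycans and a holder of 1 miR-23a-3p 8mer, was at 3.04, 8.51, 14.1 and 31.9 and 23.9, 38.4, 63.2 and 82 CPM. Levels were lowest in replicate 1 and highest in replicate 4 under both mimics, so the groups overlapped (log2FC -2.13 ± 0.27, edgeR adjusted p = 0.00695; 3 of 4).

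Tead1, a DNA-binding factor of the Hippo pathway, was at 24.9, 13.4, 18.1 and 28 CPM with miR-23a and 219.8, 55.5, 72.6 and 59.6 CPM with miR-24, where replicate 1 stood far above the other three libraries. Without that pair its fold change was -1.69, against -2.07 with it (adjusted p = 0.0114, edgeR), and the call was kept in 2 of 4 fits. Atp5f1, a subunit of the peripheral stalk of ATP synthase, was at 16.3, 17.2, 23.5 and 31.5 CPM with miR-23a and 77.7, 64.4, 98.8 and 95.4 CPM with miR-24. No library crossed over (log2FC -1.95 ± 0.19, edgeR adjusted p = 0.00679; 3 of 4), and the gene overlaps Wdr77 on the other strand. Adcy4, an adenylyl cyclase, was at 7.77, 10.8, 3.89 and 18.2 and 29.1, 34.5, 24.4 and 32.8 CPM. It too was apart between the mimics (log2FC -1.75 ± 0.30, edgeR adjusted p = 0.0169; 2 of 4).

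**Figure D4:**
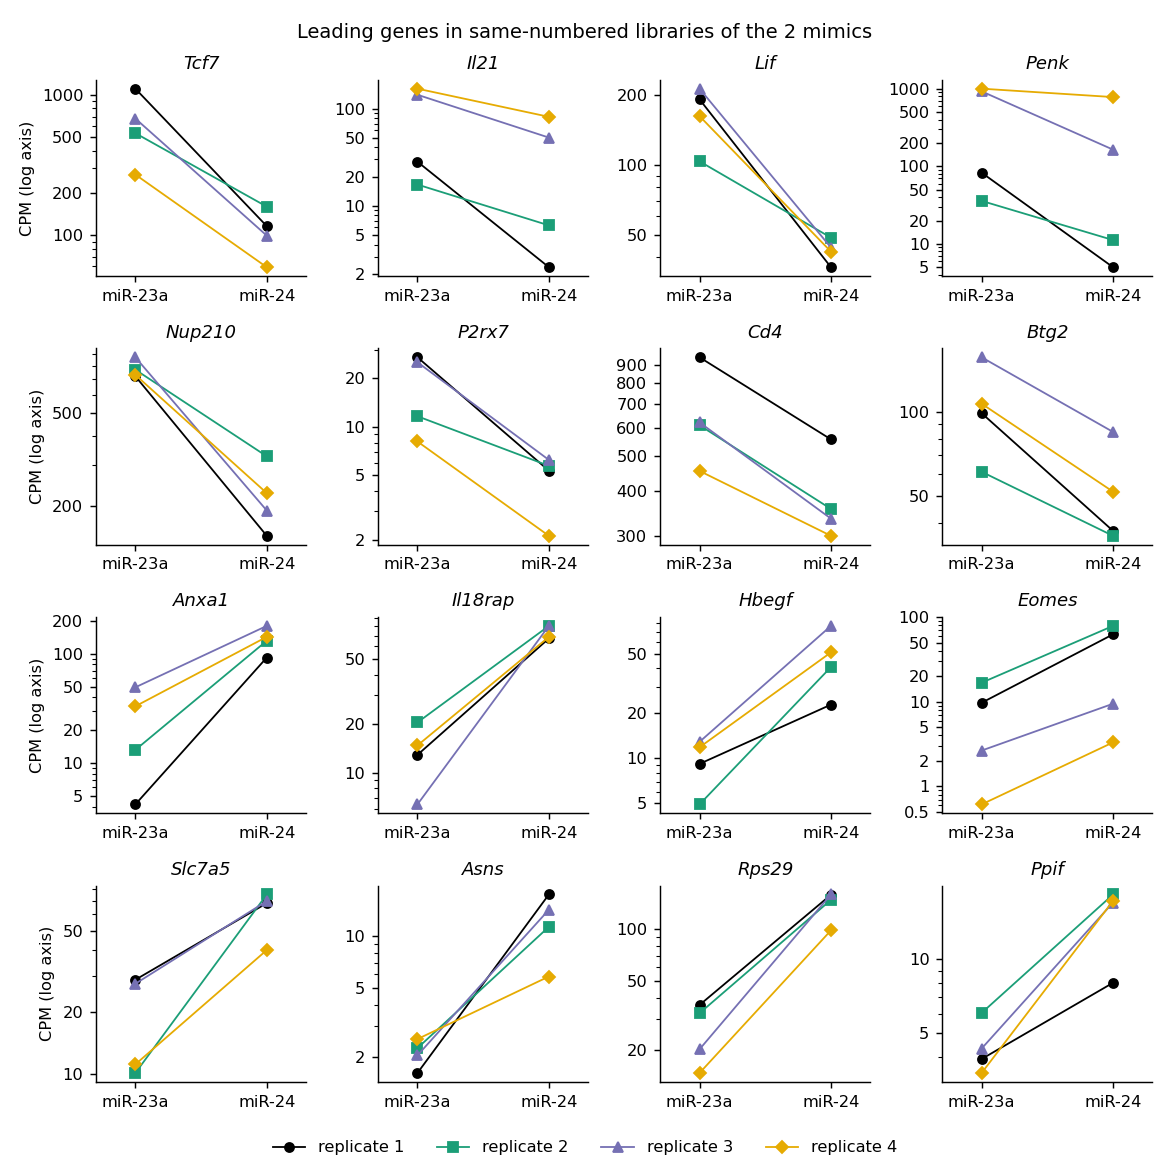
Level (CPM, log axis) of 16 genes in the libraries of both mimics; each line joins the 2 libraries of the same replicate number. All 4 lines of every gene run the same way, while genes such as Il21, Penk and Eomes differ more between replicate numbers than between mimics, and Nup210 (149 to 327 CPM with miR-24 and 720.0 to 868 CPM with miR-23a) and Tcf7 separate the mimics fully. The genes were chosen as called, some also for the same direction in all 4 pairs, so the shared direction follows largely from the choice.

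Th2 genes had mostly positive fold changes, and 4 regulators but no signature cytokine were called. Of 34 tested members of a Th2 list, 25 had a positive fold change, 4 were called higher with miR-23a and none higher with miR-24, and the median was 0.40 against -0.01 over all genes. Without replicate 1, 10 were called higher with miR-23a and 1 higher with miR-24, against backgrounds of 8.69% and 9.91%. Il4, whose product drives Th2 differentiation, was at 7.06, 22.4, 27.3 and 21.3 CPM with miR-23a and 11, 29.6, 16.4 and 19.3 CPM with miR-24, with overlapping groups (log2FC -0.02 ± 0.26, edgeR adjusted p = 0.977). The 104-base 3′ UTR of Il4 holds a miR-24-3p 8mer from its base 3 on, shown because Il4 is the cytokine central to these cultures.
Il4, miR-24-3p 8mer (chr11:53612554-53612561, minus strand): taCTGAGCCAccatgctttaa

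Il13, the cytokine of mucus and airway responses, was at 35.2, 36.3, 114 and 194 CPM with miR-23a and 15.5, 42.3, 209 and 523 CPM with miR-24. It was highest in replicates 3 and 4 under both mimics and was not called (log2FC -0.39 ± 0.36, edgeR adjusted p = 0.608). Il5, the eosinophil growth factor, was at 8.13, 4.26, 6.28 and 2.45 and 6.19, 2.7, 2.91 and 1.31 CPM. It was higher with miR-23a in all 4 pairs but not called (log2FC 0.76 ± 0.31, edgeR adjusted p = 0.213). Il10, an anti-inflammatory cytokine that Th2 cells also make, was at 30.9, 106, 214 and 213 and 7.02, 115, 94.7 and 153 CPM. It was lowest in replicate 1 under both mimics and was not called (log2FC 0.86 ± 0.32, edgeR adjusted p = 0.17). None of these 4 cytokine genes passed the test, which does not show that they did not differ.

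Gata3, the transcription factor that defines Th2 cells, was at 211, 188, 406 and 275 CPM with miR-23a and 89.8, 132, 204 and 272 CPM with miR-24. It was higher with miR-23a in 4 of 4 pairs but short of the threshold (log2FC 0.69 ± 0.22, edgeR adjusted p = 0.117). Ikzf1, which encodes Ikaros, was at 1287, 1262, 1433 and 1365 and 1061, 919, 837 and 835 CPM. Although the groups did not overlap it was not called (log2FC 0.56 ± 0.16, edgeR adjusted p = 0.0876). The IL-4 receptor chain Il4ra (log2FC 0.19 ± 0.28, edgeR adjusted p = 0.767) and its signal transducer Stat6 (log2FC 0.23 ± 0.17, edgeR adjusted p = 0.495) were not called. The same held for Maf, an activator of Il4 and Il10 (log2FC 0.11 ± 0.20, edgeR adjusted p = 0.822), and Nfatc2, a calcium-dependent factor at cytokine genes (log2FC 0.47 ± 0.21, edgeR adjusted p = 0.261).

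Besides Tcf7, the called Th2 list members were Epas1, Dusp6 and Bhlhe41. Epas1, which encodes the hypoxia-inducible factor HIF-2 alpha, was at 545, 932, 694 and 787 CPM with miR-23a, 125, 329.9, 219 and 423 CPM with miR-24 and 1294, 1639.7 and 2196 CPM in the controls. The mimics did not overlap (log2FC 1.54 ± 0.21, edgeR adjusted p = 0.00884; 2 of 4), and the gene was called higher with miR-23a although it holds a miR-23a-3p 8mer. Dusp6, a phosphatase of the kinase ERK, was at 52.1, 73, 126 and 130.4 and 20.9, 44.7, 53.2 and 73.4 CPM. Replicates 3 and 4 were the higher libraries of both mimics (log2FC 1.02 ± 0.19, edgeR adjusted p = 0.0204). Bhlhe41, a repressor described in Th2 cells, was near the detection limit, at 1.07, 2.02, 7.07 and 1.61 and 0, 0.573, 1.45 and 0.1 CPM, where 3 reads correspond to 0.230 to 0.672 CPM (log2FC 2.59 ± 0.56, edgeR adjusted p = 0.0375).

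Th1 and cytotoxic genes were called in both directions. Of 17 tested, 4 were called higher with miR-24 and 2 higher with miR-23a, with a median of -0.37, and without replicate 1 the counts were 8 and 3 of 18, against 9.91% and 8.69% of all genes. That median depended on lowly expressed members: it was 0.01 when only genes of at least 5 CPM were tested. Cxcr3, the chemokine receptor of Th1 cells, was at 1.07, 7.17, 0.354 and 0.0766 CPM with miR-23a and 15.5, 14, 4.79 and 0.904 CPM with miR-24. It was higher with miR-24 in each pair (log2FC -2.72 ± 0.55, edgeR adjusted p = 0.031; 2 of 4). Eomes and Il18rap, above, and the cytotoxic protease Gzmb (log2FC -1.36 ± 0.31, edgeR adjusted p = 0.0455) were higher with miR-24 as well. The receptor chains Il27ra and Il12rb1 (log2FC 0.77 ± 0.18, edgeR adjusted p = 0.0437) went the other way. Il27ra, of the IL-27 receptor, was at 129, 105, 115 and 36 and 49, 59.6, 36.9 and 18.2 CPM (log2FC 1.21 ± 0.20, edgeR adjusted p = 0.0151). It overlaps Palm3 on the other strand. The NK and CD8 marker sum given above moved in the direction of Eomes and Gzmb. Cd8b1 had 376 reads over the miR-23a libraries and 760 over the miR-24 libraries, Cd8a 86 and 132, and Xcl1 0 and 18. The NK genes Ncr1 and Klra8 were at 0. The part of these markers in the calls was not tested.

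Other helper lineages had a few called genes each. Without replicate 1 the calls higher with miR-23a and with miR-24 were 4 and 1 of 9 Th17, 3 and 3 of 11 follicular helper and 2 and 4 of 14 regulatory T cell genes. The shares over all genes were 8.69% and 9.91% in that fit, and 1.98% and 2.25% with all pairs. Rora, a transcription factor of Th17 and innate lymphoid cells, was at 38.5, 66.3, 51.6 and 51.4 CPM with miR-23a and 16.2, 25.5, 18.5 and 27.2 CPM with miR-24. Its groups were apart (log2FC 1.25 ± 0.19, edgeR adjusted p = 0.0122), and with Il21 it made 2 called of 8 Th17 genes, both higher with miR-23a. Like Epas1, Rora was called higher with miR-23a although its 3′ UTR holds a miR-23a-3p 8mer. Tox2, a factor of follicular helper cells, was at 16, 17, 71.4 and 32.9 and 0.334, 4.18, 8.29 and 7.73 CPM. It did not overlap between the mimics (log2FC 2.79 ± 0.41, edgeR adjusted p = 0.0114; 3 of 4). Bcl6, the factor that defines follicular helper cells, was at 14.2, 23.3, 23.3 and 24.1 and 45.8, 40.5, 37.9 and 44.9 CPM. It went the other way, also apart (log2FC -1.02 ± 0.22, edgeR adjusted p = 0.0392). Among 14 regulatory T cell genes, Lrrc32, which presents latent TGF-beta on the cell surface, was higher with miR-23a (log2FC 0.93 ± 0.17, edgeR adjusted p = 0.0217), and Nt5e, the ectoenzyme CD73, higher with miR-24 (log2FC -1.27 ± 0.23, edgeR adjusted p = 0.0211).

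Homing and memory genes included 4 called higher with miR-23a and 1 higher with miR-24 of 23 tested, with a median of 0.23, and without replicate 1 these counts were 6 and 3. Over all genes the shares were 1.98% and 2.25% with all pairs, and 8.69% and 9.91% without replicate 1. S1pr1, the receptor through which lymphocytes leave lymph nodes, was at 142, 95.7, 220.3 and 137 CPM with miR-23a and 60.7, 62.2, 54.9 and 57.4 CPM with miR-24. Its groups were apart (log2FC 1.28 ± 0.23, edgeR adjusted p = 0.0203), and its 3′ UTR holds a miR-24-3p 8mer. Cd27, a costimulatory receptor of naive and memory cells, was at 73.1, 65.9, 66.1 and 26.4 and 33.9, 38.1, 24.8 and 7.33 CPM (log2FC 1.28 ± 0.22, edgeR adjusted p = 0.017). Btg2, an antiproliferative p53 target, was at 98.8, 60.9, 157 and 107 and 37.4, 35.9, 84.6 and 51.7 CPM (log2FC 1.02 ± 0.18, edgeR adjusted p = 0.0187). Both had overlapping groups but were higher with miR-23a in each pair.
S1pr1, miR-24-3p 8mer (chr3:115711513-115711520, minus strand): ttgattttgcaCTGAGCCAaaggtctagca

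Surface receptors of antigen signalling differed in both directions. Cd4 itself was at 944, 610.2, 621 and 455 CPM with miR-23a and 557, 357, 335 and 300.1 CPM with miR-24. It was higher with miR-23a in each pair (log2FC 0.76 ± 0.15, edgeR adjusted p = 0.0309), in cells sorted for the CD4 protein on their surface. Cd2, an adhesion receptor, was at 189, 82.9, 117 and 204 and 291, 192, 286 and 270.2 CPM, higher with miR-24 (log2FC -0.88 ± 0.20, edgeR adjusted p = 0.0436). Dgka, a kinase that removes diacylglycerol and damps receptor signalling, was at 437, 644, 689 and 513 and 283, 368, 436 and 248 CPM (log2FC 0.79 ± 0.16, edgeR adjusted p = 0.0315). It overlaps Pmel on the other strand. These were the 3 called of 38 T cell receptor and CD28 pathway genes, of which 28 had a positive fold change (median 0.15). Among 32 calcium and NFAT genes 23 were positive (median 0.18) and 3 were called, all higher with miR-23a. In the fit without replicate 1 the calls higher with miR-23a and with miR-24 were 10 and 3 of the 38 and 10 and 2 of the 32. All genes together gave 8.69% and 9.91% in that fit, and 1.98% and 2.25% with all pairs. The 3 calcium genes called over all 4 pairs were P2rx7, Clcn3 and Orai2. Clcn3, a chloride transporter, was at 83.4, 111, 139.6 and 142 and 51, 55.1, 68.6 and 72.6 CPM (log2FC 0.93 ± 0.17, edgeR adjusted p = 0.0191). Orai2, a subunit of store-operated calcium channels, was at 79.4, 50.4, 81.2 and 52.4 and 35.6, 32.9, 40.6 and 24.4 CPM (log2FC 0.97 ± 0.18, edgeR adjusted p = 0.0242). None of the 3 overlapped between the mimics.

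Activation factors went both ways, with 17 of 27 negative, 10 positive and a median of -0.20. Of these, 3 were called higher with miR-24 (Irf8, Batf3, Atf3), and Dusp6 was called the other way. Atf3 was called higher with miR-24 although its 3′ UTR holds a miR-24-3p 8mer. Egr1, Egr2 and Egr3 had positive fold changes (1.23, 0.35 and 0.35), as had Nr4a1 (0.75) and Nr4a2 (0.52). Nr4a3 was at -0.24, and none of these EGR and NR4A genes was called. When replicate 1 was left out, 9 of 26 were called higher with miR-24 and 4 higher with miR-23a, against 9.91% and 8.69% of all genes. With all pairs these shares of all genes were 2.25% and 1.98%, which also stand beside the checkpoint and adhesion counts below. Irf8, an interferon regulatory factor, was at 6.34, 11.6, 3.98 and 5.06 CPM with miR-23a and 25.1, 36.4, 15.4 and 7.93 CPM with miR-24 (log2FC -1.56 ± 0.28, edgeR adjusted p = 0.0204). Batf3, a partner of AP-1 factors, was at 10, 31.1, 24.8 and 25.7 and 23.9, 48.3, 54.6 and 78.2 CPM (log2FC -1.16 ± 0.21, edgeR adjusted p = 0.0211). Of 33 checkpoint and costimulatory genes, Tnfsf9, Lta and Cd200 (log2FC -0.95 ± 0.22, edgeR adjusted p = 0.0462) were higher with miR-24 and Cd27 higher with miR-23a. Tnfsf9, which encodes the ligand 4-1BBL, was at 6.61, 6.27, 8.05 and 12.3 and 13, 27.3, 43.4 and 42.2 CPM, without overlap (log2FC -1.83 ± 0.27, edgeR adjusted p = 0.0116). Among 22 integrin and adhesion genes, Itgb3 was called higher with miR-23a, and 2 genes, Amica1 among them, were called higher with miR-24. Itgb3, the beta 3 integrin chain, was at 640.3, 569, 604 and 379 and 142, 255, 335 and 194 CPM (log2FC 1.28 ± 0.23, edgeR adjusted p = 0.0204). Amica1, a junctional adhesion protein, was at 9.2, 6.5, 3.71 and 1.84 and 22.7, 33.2, 16.4 and 8.63 CPM (log2FC -1.98 ± 0.27, edgeR adjusted p = 0.00849).

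Genes of amino acid supply were called mostly in the direction of miR-24. Of 43 tested, 35 had a negative fold change, 8 were called higher with miR-24 and 1, Wars, higher with miR-23a, with a median of -0.43. Without replicate 1 the calls were 18 and 1, against backgrounds of 9.91% and 8.69%. Slc7a5, the transporter of large neutral amino acids, was at 28.8, 10.1, 27.5 and 11.1 CPM with miR-23a, 68, 75, 69.7 and 40.2 CPM with miR-24 and 18.6, 7.76 and 5.38 CPM in the controls. The mimics were apart (log2FC -1.79 ± 0.28, edgeR adjusted p = 0.0129; 1 of 4), and the miR-24 level was above the controls too. Asns, asparagine synthetase, was at 1.61, 2.24, 2.03 and 2.53 CPM with miR-23a, 17.4, 11.3, 14.2 and 5.82 CPM with miR-24 and 2.44, 1.34 and 0.921 CPM in the controls. Its miR-23a and control levels were close and its miR-24 levels apart from both (log2FC -2.43 ± 0.39, edgeR adjusted p = 0.0139; 2 of 4). Slc1a4, a carrier of neutral amino acids, was at 5.27, 2.02, 1.59 and 1.69 and 24.9, 4.83, 12.6 and 4.72 CPM (log2FC -2.05 ± 0.35, edgeR adjusted p = 0.0171).

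Atf4, the transcription factor that induces such genes when amino acids are short, was itself called (log2FC -0.90 ± 0.19, edgeR adjusted p = 0.0338), as were Slc7a11, the cystine transporter (log2FC -2.26 ± 0.44, edgeR adjusted p = 0.027), and Phgdh, the first enzyme of serine synthesis (log2FC -1.22 ± 0.23, edgeR adjusted p = 0.0221). These 3 were named after their values were seen. The exception, Wars, tryptophanyl-tRNA synthetase, was at 43, 40.1, 103 and 51.6 and 16.4, 26.4, 39.5 and 22.1 CPM (log2FC 1.15 ± 0.21, edgeR adjusted p = 0.0187), and its 3′ UTR holds a miR-24-3p 8mer.
Wars, miR-24-3p 8mer (chr12:108860857-108860864, minus strand): agacacgaggtCTGAGCCAgcctggtagta

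Cytosolic ribosomal protein genes had negative fold changes in 41 of 47, with a median of -0.43, and 6 were called, all higher with miR-24. Without replicate 1, 32 of the 47 were called higher with miR-24 and none higher with miR-23a, against 9.91% and 8.69% of all genes. Rps29, given above, differed most. Rpl24 was at 107, 103, 126 and 114 CPM with miR-23a and 154, 277, 347 and 249.6 CPM with miR-24 (log2FC -1.14 ± 0.20, edgeR adjusted p = 0.0184). Rpl38 was at 41, 21.3, 23.9 and 18.8 and 54, 58.4, 71.2 and 58.2 CPM (log2FC -1.27 ± 0.24, edgeR adjusted p = 0.0257). Rpl32, which overlaps Cand2 on the other strand, had a fold change of -0.85 (adjusted p = 0.0366, edgeR). Ribosomal protein genes have many processed copies in the genome, so that reads lost to multiple alignment make their levels less certain than those of other genes. Mitochondrial ribosomal protein genes had 31 of 48 positive and a median of 0.10, and 1 (2.08%) was called, against 4.24% of all genes. This was Mrpl4, at 30.8, 21.1, 30.2 and 33.4 CPM with miR-23a and 9.7, 14.4, 11 and 12.9 CPM with miR-24 (log2FC 1.26 ± 0.24, edgeR adjusted p = 0.0255).

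Of 56 respiratory chain and ATP synthase genes, 3 (5.36%) were called, all higher with miR-24, a share near the 4.24% of all genes. Without replicate 1, 11 were called higher with miR-24 and 1 higher with miR-23a, against 9.91% and 8.69% of all genes. The 3 called over all 4 pairs were Atp5f1, Ndufs4 and Uqcrfs1. Ndufs4, a complex I subunit, was at 23.9, 21.7, 18.4 and 17.9 and 53, 45.4, 55.8 and 42.2 CPM (log2FC -1.26 ± 0.19, edgeR adjusted p = 0.012). Uqcrfs1, the Rieske protein of complex III, was at 39.5, 41.7, 36.6 and 49.8 and 89.4, 66, 86.8 and 85.3 CPM (log2FC -0.97 ± 0.19, edgeR adjusted p = 0.0255). Neither overlapped between the mimics, and Uqcrfs1 holds a miR-23a-3p 8mer, shown at the end of the paragraph. Enzymes of glucose use went both ways, with 3 of 30 higher with miR-23a and 2 higher with miR-24, and with 5 and 8 when replicate 1 was left out. Of all genes 1.98% and 2.25% were called in these directions with all pairs, and 8.69% and 9.91% without replicate 1. Pgk1, phosphoglycerate kinase, was at 286, 329, 309 and 580.0 CPM with miR-23a and 79.1, 122, 148 and 233 CPM with miR-24 (log2FC 1.41 ± 0.18, edgeR adjusted p = 0.00695; 2 of 4). Hexokinase 1, Hk1 (log2FC 0.90 ± 0.18, edgeR adjusted p = 0.0292), and G6pdx, which feeds the pentose phosphate pathway (log2FC 0.82 ± 0.17, edgeR adjusted p = 0.0316), went the same way. Pcx, pyruvate carboxylase, was at 5.27, 2.91, 3.63 and 11 CPM with miR-23a, 18.6, 20.3, 47.1 and 33.2 CPM with miR-24 and 4.3, 2.5 and 2 CPM in the controls. It was higher with miR-24 without overlap (log2FC -2.43 ± 0.36, edgeR adjusted p = 0.0116).
Uqcrfs1, miR-23a-3p 8mer (chr13:30540590-30540597, minus strand): tggcaaacattAATGTGAAgtaattgaatt

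Lipid synthesis split between enzymes. Scd1 and Scd2, desaturases that make monounsaturated fatty acids, were higher with miR-24. Scd2 was at 53.4, 82.9, 122 and 424 CPM with miR-23a and 104, 181, 355 and 803 CPM with miR-24 (log2FC -1.14 ± 0.18, edgeR adjusted p = 0.0127). Scd1 was at 2.77, 0.448, 3.18 and 12.9 and 6.85, 1.06, 17.4 and 36.6 CPM (log2FC -1.72 ± 0.31, edgeR adjusted p = 0.0187). Both were highest in replicate 4, so their groups overlapped. Hsd17b7, an enzyme of cholesterol synthesis, was higher with miR-23a at 57.2, 56.2, 464 and 458 and 19.7, 25.3, 99.5 and 241 CPM (log2FC 1.46 ± 0.23, edgeR adjusted p = 0.0137). Fasn, fatty acid synthase, went with Hsd17b7 (log2FC 1.13 ± 0.26, edgeR adjusted p = 0.0468). The median over the 38 genes was at -0.01, with 2 called each way, and with 3 higher with miR-23a and 8 higher with miR-24 when replicate 1 was left out. That fit called 8.69% and 9.91% of all genes in these directions. Among 47 lysosomal and autophagy genes 3 were called each way. For both lists the shares of all genes with all pairs were 1.98% higher with miR-23a and 2.25% higher with miR-24. Psap, the precursor of the saposins, was at 338, 261, 214 and 204 CPM with miR-23a and 83.2, 80.8, 95.5 and 83.6 CPM with miR-24 without overlap (log2FC 1.54 ± 0.20, edgeR adjusted p = 0.00695). Ctss, the protease cathepsin S, was higher with miR-24 at 8.31, 5.15, 5.84 and 9.73 and 16.5, 22.7, 34.4 and 16.5 CPM (log2FC -1.59 ± 0.34, edgeR adjusted p = 0.0354).

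Interferon response genes had negative fold changes in 28 of 38, with a median of -0.38, and 3 were called, all higher with miR-24. Ifit2 was at 9.56, 3.58, 3.63 and 2.07 CPM with miR-23a and 28.8, 15.4, 9.57 and 5.12 CPM with miR-24 (log2FC -1.59 ± 0.26, edgeR adjusted p = 0.015). Oasl2, of the oligoadenylate synthetase family, was at 2.32, 2.46, 0.265 and 1.3 and 36.6, 9.09, 8.89 and 2.41 CPM (log2FC -2.87 ± 0.60, edgeR adjusted p = 0.0334). Ifit2 was highest in replicate 1 under both mimics, and Oasl2 in replicate 1 with miR-24. Dhx58, a sensor of viral RNA, was at 3.57, 2.46, 3.36 and 3.6 and 7.36, 7.7, 10.1 and 8.33 CPM, without overlap (log2FC -1.36 ± 0.28, edgeR adjusted p = 0.0334). Leaving out replicate 1 gave 11 called higher with miR-24 and 2 higher with miR-23a, against 9.91% and 8.69% of all genes. Irf7, a central factor of the response, was not called, at -0.59 ± 0.33 (adjusted p = 0.369, edgeR).

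The p53 target list leaned the other way, with 24 of 28 positive and a median of 0.42, but only Btg2 was called, a share of 3.57% against 4.24% of all genes. Without replicate 1, 9 were called higher with miR-23a and 3 higher with miR-24, against 8.69% and 9.91% of all genes. Cdkn1a, the cell cycle inhibitor p21 and the best known p53 target, was at 0.04 ± 0.30 (adjusted p = 0.961, edgeR). Of 19 inhibitors and partners of G1 kinases, Cdkn2a and Cdkn2b, neighbouring inhibitors of CDK4 and CDK6, were higher with miR-24 at low levels. Cdkn2a was at 0.0893, 0, 0.354 and 0.46 CPM with miR-23a and 3.51, 1.23, 7.44 and 1.41 CPM with miR-24 (log2FC -3.60 ± 0.69, edgeR adjusted p = 0.0247). Cdkn2b was at 2.86, 3.14, 1.06 and 4.29 and 7.52, 10.2, 23.2 and 13 CPM (log2FC -2.20 ± 0.48, edgeR adjusted p = 0.0395). Neither overlapped between the mimics, and the miR-23a values of Cdkn2a rest on a few reads per library. Rbl2, the pocket protein p130 of resting cells, was higher with miR-23a at 333, 511, 399.5 and 494 and 216, 227, 163 and 214 CPM (log2FC 1.07 ± 0.18, edgeR adjusted p = 0.0151). Among 43 DNA replication genes Rfc3, a subunit of the clamp loader (log2FC -1.16 ± 0.24, edgeR adjusted p = 0.0334), and Fen1, the flap endonuclease (log2FC -0.95 ± 0.21, edgeR adjusted p = 0.0424), were higher with miR-24. They were the only called members, a share of 4.65%, near the 4.24% of all genes.

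Several lists held no called gene in the fit of all 4 pairs, where 4.24% of all genes were called. With edgeR 0 of 43 mitosis genes, 0 of 29 NF-kB genes, 0 of 24 BCL2 family and caspase genes and 0 of 28 genes of microRNA processing and silencing passed, where 2521 of all 12510 genes had an unadjusted p under 0.05. DESeq2 called 1 of the mitosis genes and none of the NF-kB, BCL2 and microRNA genes, and limma-voom none in the 4 lists. Without replicate 1, edgeR called 2 mitosis genes each way, 2 NF-kB genes higher with miR-23a and 6 higher with miR-24, 3 BCL2 and caspase genes higher with miR-24, and 6 microRNA genes higher with miR-23a and 1 higher with miR-24. Of all genes that fit called 8.69% higher with miR-23a and 9.91% higher with miR-24. Mki67, the proliferation marker, was at -0.08 ± 0.23 (adjusted p = 0.884, edgeR) and Drosha, the partner of Dgcr8, at 0.70 ± 0.21 (adjusted p = 0.102, edgeR). Of 24 TGF-beta genes 1 (4.17%) was called, a share near that of all genes. This was Tgif1, a co-repressor of SMADs, at 0.804, 1.34, 4.33 and 1.69 CPM with miR-23a and 14.2, 11.8, 15.1 and 10.6 CPM with miR-24 (log2FC -2.81 ± 0.39, edgeR adjusted p = 0.0092).

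**Figure D5:**
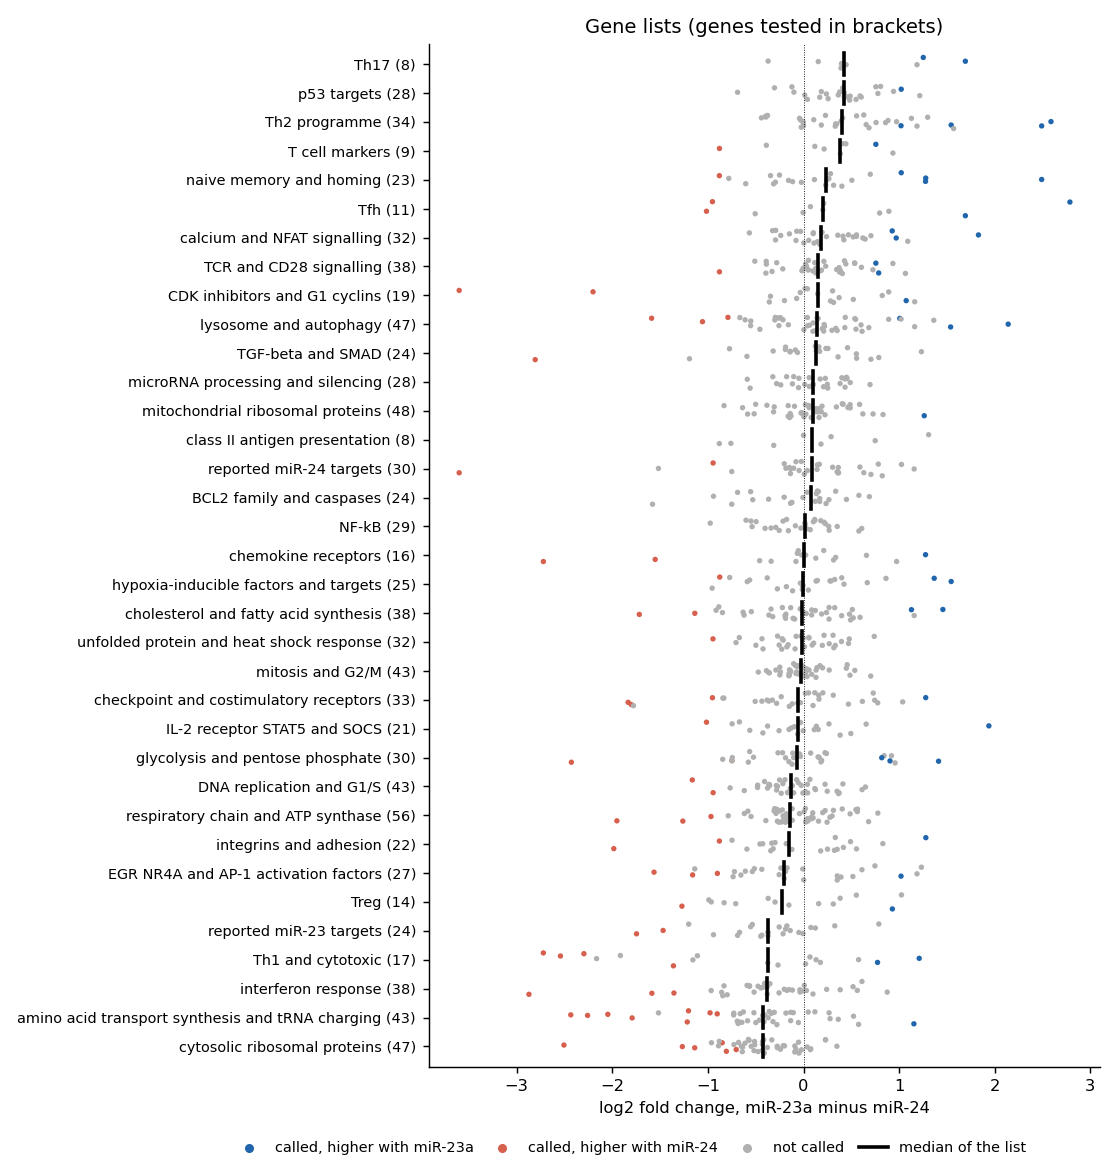
Log2 fold change (miR-23a minus miR-24, horizontal axis) of the tested members of each gene list with at least 8 of them; each point is a gene, blue and red points are called, and the black bar is the median. The medians run from -0.43 for cytosolic ribosomal proteins to 0.42 for Th17 genes and p53 targets, and most members of every list are not called.

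Reported targets of the 2 microRNAs were taken from what is known of them in other cells and in T cells. Of 24 reported miR-23 targets 20 were negative, with a median of -0.37, and 2 were called, both lower with miR-23a. Ppif, the cyclophilin of the mitochondrial permeability pore, was at 3.93, 6.05, 4.33 and 3.45 CPM with miR-23a and 8.02, 18.3, 17 and 17.3 CPM with miR-24 (log2FC -1.75 ± 0.29, edgeR adjusted p = 0.015). Hmgn2, a nucleosome-binding protein, was at 75.2, 37.9, 42.1 and 61.2 and 115, 136, 173 and 159 CPM (log2FC -1.47 ± 0.25, edgeR adjusted p = 0.0159). Neither gene's groups overlapped. Ppif overlaps Ppifos on the other strand, and Hmgn2 has a named pseudogene. Xiap, an inhibitor of caspases, was at -0.55 ± 0.23 (adjusted p = 0.218, edgeR). Without replicate 1, 8 were called lower and 1 higher with miR-23a, against 9.91% and 8.69% of all genes. The sites of the called genes are shown because both hold the 8mer.
Ppif, miR-23a-3p 8mer (chr14:25700269-25700276, plus strand): tctttctgctcAATGTGAAttcccgtggtg
Hmgn2, miR-23a-3p 8mer (chr4:133964955-133964962, minus strand): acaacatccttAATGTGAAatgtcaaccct

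Of 30 reported miR-24 targets 17 were positive, with a median of 0.09, and the 2 that were called, Cdkn2a and Fen1, were higher with miR-24, the direction opposite to that of a lowered target. Neither holds a miR-24-3p 8mer or the 7mer without the A in its longest annotated 3′ UTR. Cdkn1b, the inhibitor p27, was at 0.82 ± 0.24, and Notch1 at 0.63 ± 0.22 (adjusted p = 0.0903 and 0.154, edgeR). Myc was at -0.20 ± 0.24 and Bcl2l11, the pro-apoptotic protein BIM, at 0.15 ± 0.16 (adjusted p = 0.702 and 0.68, edgeR). Leaving out replicate 1 gave 2 called higher with miR-23a and 3 higher with miR-24, shares near the 8.69% and 9.91% of all genes.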

How the data were processed

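The deposited files hold, per sample, raw counts of reads per gene, which the authors made from 50-base single-end reads; per the submitters' processing notes Bowtie2, TopHat and DESeq were used with the mouse build mm10. Their versions, the counting tool, its strand setting and the gene annotation are not given in the sources used here. The 5 closing summary lines of each file (reads without a gene, ambiguous or not uniquely aligned), 70.4 to 77.4% of all lines' reads in the 8 libraries, were left out, and Rn45s took 1.65 to 19.1% of the reads on genes.

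Genes were kept by edgeR's filterByExpr (12510 of 23337), scaled by TMM and tested with edgeR 4.0.16 (R 4.3.3) quasi-likelihood F tests with the replicate number as a block, two-sided, with Benjamini-Hochberg adjustment over all genes tested and a threshold of 0.05. The standard error is the size of the log2 fold change divided by the square root of F. The labels number the replicates alike in both groups, and the pairing was checked by correlating deviations from the group means over the 4899 genes whose mean level exceeded 5 on the log2 CPM scale: all 4 same-numbered pairs exceeded 0.1. Each miR-23a library correlated best with the miR-24 library of its own number except replicate 2, whose best match was miR-24 replicate 1. Which libraries shared a sequencing lane, 4 to a lane per the labels' protocols, is not given. The edgeR p-values set the difference between the mimics against the variation left among these libraries once the levels of the replicate numbers are removed.

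Seeds were read from RefSeq and 8mers searched in the longest GENCODE M21 3′ UTR; of the files' symbols 20953 matched directly and 1884 by an older symbol. Lists were described by counts and medians, with no test. Named genes were the 12 with the most extreme fold changes on each side among called genes with a mean log2 CPM of at least 4 and the same sign in all pairs (clone names and small RNAs left out), Th2 genes and the deleted genes, up to 4 called genes with the smallest adjusted p per list, the 6 such genes with an 8mer per microRNA, and called reported targets; genes outside this rule were named after their values were seen. The members, lists and tests were chosen with earlier results of these data known. Tested on simulated counts of 12256 genes, the fit with the block recovered 65% of 100 genes changed by 1 and 100% of 100 genes changed by 2 on the log2 scale, with 14 false calls. The changed genes all had a mean log2 CPM of at least 4. Each was changed by the same amount in every pair, with the same dispersion in all libraries. The simulation therefore does not cover genes at lower levels or a pair that stands apart, as the pair numbered 1 did. Alternatives were no block, DESeq2 1.42.0, limma-voom 3.58.1, other scaling and filters, all 16 libraries, and leaving out each pair. A few genes and 1 target site are not reported here.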

Additional observations from a re-analysis of the deposited data

Results flagged for a closer look

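In 11 genes named above and in depth, 1 library of 4 lay farther from the other three than Dixon's criterion allows; of 230 gene and measure groups looked at, 12 were marked, and chance alone marks about 1 in 20 groups. With miR-23a, Nebl was at 44.9 CPM in replicate 1 and at 58.8 to 60.2 CPM in the others. Maf was at 75.6 CPM in miR-23a replicate 1 and at 177 to 188 CPM in the others, and Bcl6 at 14.2 CPM in that library against 23.3 to 24.1 CPM. The same library was the high one for Slc1a4, at 5.27 CPM against 1.59 to 2.02 CPM. Cxcr3 was at 7.17 CPM in miR-23a replicate 2 and at 0.0766 to 1.07 CPM in the others. Bhlhe41 was at 7.07 CPM in miR-23a replicate 3 and at 1.07 to 2.02 CPM in the others. In miR-23a replicate 4, Cd27 was at 26.4 CPM against 65.9 to 73.1 CPM and Pgk1 at 580.0 CPM against 286 to 329 CPM.

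With miR-24, replicate 1 was the library apart in each case. Tead1 was there at 219.8 CPM against 55.5 to 72.6 CPM, Fen1 at 98.3 CPM against 30.9 to 33.0 CPM, and Ppif at 8.02 CPM against 17.0 to 18.3 CPM. Replicate 1 of either mimic thus held 7 of the 11 gene values. In depth, miR-23a replicate 2 had 4086654 reads on genes against 11370150 to 12582408 in the other miR-23a libraries.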

How the results depend on the processing

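The replicate pairing carried most calls: with no replicate block 27 genes were higher with miR-23a and 36 higher with miR-24, all 63 among the 530, and 13 and 6 genes with a miR-23a-3p or miR-24-3p 8mer were called lower with their own mimic, against 50 and 44. DESeq2 gave 520 and 554 genes, and 89 and 86 with sites. No filter on low counts gave 375 genes higher with miR-23a. Leaving out 1 pair gave 0 to 1090 genes higher with miR-23a, 0 to 1243 higher with miR-24, and 0 to 155 and 0 to 164 with sites, the lowest without replicate 3 and the highest without replicate 1. Without replicate 3, DESeq2 gave 142 and 161 genes and limma-voom 0 and 2, alternatives chosen after seeing the data. Counting 7mers as well gave 80 and 98 called genes with sites, over 1983 and 2277 genes, and a mean log2 CPM of at least 4 left 28 for miR-23a. The medians of both site groups kept their sign and moved by less than the spread between pairs in all alternatives run. For the miR-23a-3p 8mer that spread, a standard deviation of 0.13, is widened by the pair numbered 1, at -0.38. Its median of -0.18 became -0.11 without replicate 1, -0.11 at a mean log2 CPM of at least 4 and -0.09 with 7mers. The miR-24-3p median stayed between 0.10 and 0.15. Other scaling, leaving out Rn45s and all 16 libraries kept the counts within 1.5 times. Of 95 named called genes, 22 were still called with no block, 95 with DESeq2, limma-voom and other size factors, and 94, 22, 0 and 39 without replicates 1 to 4; none changed sign. Il4, not called, changed sign to 0.024 with no block and 0.045 with limma-voom, and over pairs left out ranged from -0.29 to 0.17; Il4ra ranged from -0.20 to 0.37, Maf from -0.066 to 0.27 and Dgcr8 from -0.020 to 0.18. The cause was not tested. Bhlhe41, Cdkn2a, Oasl2 and Cxcr3 rest on few reads.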

Other observations

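The length of the 3′ UTR moved with the size of the difference in genes with a site. Among genes with a UTR of at most 746 bases, those with a miR-23a-3p 8mer (70 genes) had a median log2 fold change of -0.45 and those with a miR-24-3p 8mer (83 genes) one of 0.39, while genes with neither were at -0.04. Among genes with UTRs of at least 1913 bases, the 540 and 692 genes with a site had medians of -0.12 and 0.09. The class between them, with 232 and 264 genes, had medians of -0.26 and 0.12. Genes with a miR-27a-3p 8mer were at 0.00, 0.08 and -0.02 in the 3 classes. Genes called higher with miR-23a had a median UTR of 1755.5 bases, those called higher with miR-24 one of 1042 bases, and those not called one of 1238 bases.

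Rps29 and Timm8b hold their miR-23a-3p 8mer at the very end of a short UTR. A site within 40 bases of the annotated end was found in 41 genes for miR-23a-3p, with a median of -0.29 and 5 called higher with miR-24, and in 13 genes for miR-24-3p, with a median of 0.32 and none called. The other 801 genes with a miR-23a-3p 8mer had a median of -0.18. The letters AATAAA directly before the site, as in Rps29 and Ndufa3, were found in 13 of the 842 genes (1.54%), of which 2 were called higher with miR-24, and their median was -0.10. These groups are small and are given as counts and medians only.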
